A study of Mus musculus with 6 samples.

Results

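The 10 genes described here form the core of the mammalian circadian clock and its nearest outputs: Clock, Arntl, Npas2, Per1, Per2, Per3, Cry1, Cry2, Nr1d1 and Dbp. They were taken by symbol from a deposited table of 22731 genes, and all 10 had a row. The table holds 6 RNA-seq libraries of mouse retina in RPKM, which divides the reads of a gene by the length of its model and by the depth of the library. Conditional knockout (cKO) mice were Dicerfl/fl, iCre75+ and control littermates Dicerfl/fl, iCre75-, with 3 libraries each (cKO replicates 2, 3 and 4, control replicates 1, 2 and 3). Both groups thus carried floxed alleles of Dicer1, the gene of the ribonuclease that matures microRNAs, on a mixed C57BL/6J - SJL background at 4 weeks of age. The iCre75 transgene places Cre recombinase under a rod-specific promoter, so other retinal cells of cKO mice keep Dicer1. Each library pooled the RNA of 4 mice, and the design text gives a collection window of 8 to 10 in the morning for all of them, with no hour for a single library. An hour that differed between the groups within that window cannot be told apart from genotype here.

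The clock runs as a loop of transcription and translation. CLOCK, or its close relative NPAS2, pairs with BMAL1, the product of Arntl, and this pair binds E-boxes and switches on the Per, Cry, Nr1d1 and Dbp genes. PER and CRY proteins then return to the nucleus and hold the activators back, while REV-ERB alpha, the product of Nr1d1, represses Arntl through ROR elements, and DBP activates genes through D-boxes. The mammalian retina has a clock of its own, which is known for daily rhythms of dopamine, melatonin and light sensitivity.

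Reads worked back from the RPKM steps placed between 12275795 (cKO replicate 4) and 32740866 (control replicate 3) reads in genes, with a step taken as 1 read. The values cannot show whether a step stands for more than 1 read in a library, cKO replicate 4 included, so read numbers are the fewest the values allow, and the order of the libraries by depth depends on that choice. The retina label was checked against markers of its cell types, which summed to between 619.8 and 887 RPKM for cones and between 636 and 680.0 RPKM for Muller glia. Lens markers, which a dissected retina can carry, summed to between 115 and 1874 RPKM and varied within both groups, whereas the haemoglobin genes Hba-a1 and Hbb-b1 were listed at 0 in every library. Dicer1 was at 8.02, 7.06 and 7.90 RPKM in cKO and 8.48, 8.77 and 8.33 RPKM in control libraries, 89.9% of the control mean (limma adjusted p = 0.931). That value includes reads of other retinal cells and of any exon that Cre leaves in place. Only Prm1, a protamine gene named here after its values were seen, passed an adjusted p of 0.05 among the 12599 genes tested, those averaging 1 RPKM or more. Prm1 was at 787, 818 and 1137 RPKM in cKO and at 0, 0.385 and 0.185 RPKM in control libraries. Only cKO mice carried the iCre75 transgene, and its part in these values was not tested. Carrying the transgene and losing Dicer1 cannot be told apart in this design.

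All 10 clock genes passed that filter on low values, and none of them was called as changed in cKO retinas by limma on log2(RPKM + 0.5). The share called over all tested genes was 0.00794%. The cKO mean exceeded the control mean for 6 members and was under it for 4, with a median log2 fold change of 0.044 against −0.0050 over all tested genes. Without regard to sign, the median log2 fold change was 0.130 for the members and 0.076 for all tested genes. At an unadjusted limma p under 0.05 there was 1 member, Per3 (0.0362), against 5.71% of all tested genes. Groups separated upward in cKO for 1 member, Per3, and downward for 1, Per1, where 5.91% and 5.78% of all tested genes did so. Groups overlapped for the other 8. The largest change of a member in either direction was 0.27 on the log2 scale. In a whole retina, fewer cells of a type and less RNA per cell cannot be told apart. Markers of bipolar cells summed to between 266 and 273 RPKM in cKO and between 224 and 249.7 RPKM in control libraries, without overlap, and no gene of that list was called. Their part in the members' values was not tested.

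**Figure D1:**
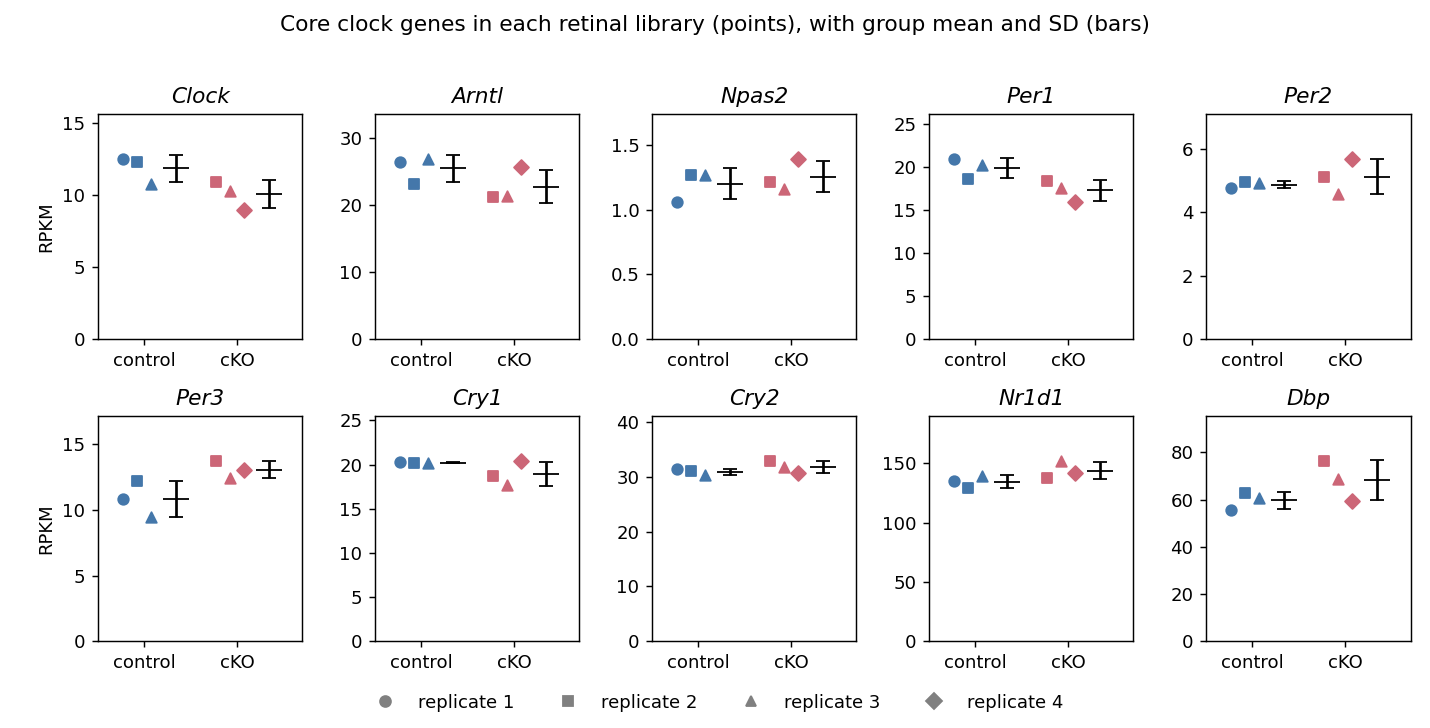
RPKM (y axis, from 0) of the 10 clock genes in each control (blue) and cKO (red) library, with the marker shape giving the replicate number and the bar the group mean and SD (n = 3). The cKO and control points separate for Per3 and Per1, and overlap for the other 8 genes.

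Levels differed widely between members. Per length of gene model, control retinas held Nr1d1 at 135 RPKM, Dbp at 59.6, Cry2 at 30.9, Arntl at 25.5, Cry1 at 20.2, Per1 at 19.9, Clock at 11.9, Per3 at 10.8, Per2 at 4.87 and Npas2 at 1.20 RPKM. In that order the ranges over the 3 control libraries overlapped between Cry1 and Per1 and between Clock and Per3, and no other neighbours overlapped. The order in cKO retinas was the same but for Per3, at 13.0 ± 0.678 RPKM, and Clock, at 10.1 ± 0.968 RPKM (SD, n = 3), which changed places without overlap. Nr1d1 stood above 98.0% of all tested genes in control retinas and Npas2 above 2.64%.

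Among the activators, Clock, a histone acetyltransferase and DNA-binding partner of BMAL1, lies on chromosome 5 (76209868 to 76304792 in GRCm38). It was at 10.9, 10.3 and 9.0 RPKM in cKO replicates 2, 3 and 4 and at 12.5, 12.3 and 10.8 RPKM in control replicates 1, 2 and 3. The lowest value was that of cKO replicate 4, and the groups overlapped only in cKO replicate 2 and control replicate 3. Its log2 fold change was −0.23 ± 0.10 (SE), with a 95% interval of −0.46 to 0.00 and a limma adjusted p of 0.874. It was −0.15 without cKO replicate 4. Between 1018 and 3577 recovered reads stood behind each value, and counting error, 3.13% at the fewest reads, was below the spread of 9.62% (coefficient of variation) among cKO libraries.

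Arntl, the gene of BMAL1 on chromosome 7 (113207465 to 113314126), was at 21.3, 21.4 and 25.7 RPKM in cKO and at 26.4, 23.2 and 26.9 RPKM in control libraries. The values of cKO replicates 2 and 3 were the lowest of the 6, and cKO replicate 4 fell among the controls. Its log2 fold change was −0.16 ± 0.11 (interval −0.41 to 0.09, limma adjusted p = 0.965). It was −0.25 without cKO replicate 4 and −0.11 without cKO replicate 2.

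Npas2, the CLOCK relative on chromosome 1 (39193731 to 39363236), was the scarcest member, at 1.21, 1.16 and 1.39 RPKM in cKO and 1.06, 1.27 and 1.27 RPKM in control libraries. These values rest on 88 to 215 reads, the highest being that of cKO replicate 4 and the lowest that of control replicate 1. A log2 fold change of 0.05 (interval −0.19 to 0.29) changed sign with single libraries, to −0.0086 without cKO replicate 4 and −0.015 without control replicate 1. Arntl2, a second BMAL gene, was below the filter at 0.534 ± 0.0522 RPKM in cKO and 0.570 ± 0.0736 RPKM in controls.

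Of the Period genes, which encode the PER repressors, Per1 was lower and Per3 higher in every cKO library, and Per2 was neither. Per1, on chromosome 11 (69095217 to 69109960), is also switched on rapidly by light and by cAMP signalling. It was at 18.4, 17.5 and 15.9 RPKM in cKO and at 20.9, 18.6 and 20.2 RPKM in control libraries. All 3 cKO values lay below the control range, though cKO replicate 2 and control replicate 2 were close. Its log2 fold change of −0.20 ± 0.09 (interval −0.41 to 0.01) had a limma adjusted p of 0.883 and an exact two-sided permutation p of 0.1, the smallest that 3 against 3 libraries allow.

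Per3, on chromosome 4 (151003652 to 151044665), has a lesser part in keeping the loop running. Its values were 13.7, 12.4 and 13.0 RPKM in cKO and 10.8, 12.2 and 9.42 RPKM in control libraries. All 3 cKO values lay above the control range, by a narrow margin over control replicate 2. Per3 was at 121% of the control mean, with a log2 fold change of 0.27 ± 0.11 (interval 0.02 to 0.51, limma adjusted p = 0.865, exact permutation p = 0.1). Control libraries spread most for this gene, with a coefficient of variation of 13.1%, against 5.21% in cKO. Leaving out 1 library moved the log2 fold change from 0.17 (without control replicate 3) to 0.36 (without control replicate 2).

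Per2, on chromosome 1 (91415982 to 91459324), is the Period gene whose loss alone shortens and then stops the rhythm in mice kept in the dark. It was at 5.11, 4.58 and 5.67 RPKM in cKO and at 4.76, 4.94 and 4.91 RPKM in control libraries. Controls kept within a narrow range (coefficient of variation 1.99%), and the cKO libraries lay on both sides of it. Counting error alone gives 3.04% at the controls' mean of reads, so their closeness is no measure of the true spread. The log2 fold change was 0.06 (interval −0.15 to 0.27, limma adjusted p = 0.997), and −0.0092 without cKO replicate 4.

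The ratio of Per3 to Per1 within a library, chosen after the values were seen and so given without a test, was 0.743, 0.706 and 0.818 in cKO and 0.514, 0.657 and 0.467 in control libraries. The groups did not overlap in it, which follows from the separation of both genes given above and adds nothing to it.

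The Cryptochrome genes encode the partners of PER in repression. Cry1, on chromosome 10 (85131700 to 85185064), was at 18.7, 17.7 and 20.4 RPKM in cKO and at 20.3, 20.2 and 20.2 RPKM in control libraries. The control values differed by a coefficient of variation of 0.137%, less than the 2.08% that counting error alone gives at their mean of reads, so their closeness is no measure of the true spread. The limma log2 fold change was −0.09 ± 0.08 (interval −0.28 to 0.10, adjusted p = 0.987), −0.047 without cKO replicate 3 and −0.15 without cKO replicate 4. Cry2, on chromosome 2 (92403646 to 92434043), was the steadiest member, at 32.9, 31.9 and 30.7 RPKM in cKO and 31.5, 31.0 and 30.3 RPKM in control libraries. The SD of its log2 value over the 6 libraries was 0.042, smaller than in all but 1.68% of tested genes. Its interval, −0.13 to 0.22 on the log2 scale, corresponds to between 0.91 and 1.16 times the control level.

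Nr1d1, on chromosome 11 (98767932 to 98775333), was the most abundant member. Its product, a nuclear receptor that binds haem, closes the second loop of the clock. It was at 138, 152 and 142 RPKM in cKO and at 135, 129 and 139.6 RPKM in control libraries, the highest value being that of cKO replicate 3. The log2 fold change was 0.10 ± 0.09 (interval −0.11 to 0.31, limma adjusted p = 0.988), and 0.060 without cKO replicate 3. In the annotation 263 exonic bases of Nr1d1 are shared with Thra, a thyroid hormone receptor gene on the opposite strand that was at 117 RPKM. The protocol describes a second strand synthesis without a strand mark, so reads in those bases cannot be assigned to either gene.

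Dbp, an output gene on chromosome 7 (45705088 to 45710203) that encodes a bZIP activator, had the widest spread in cKO retinas (coefficient of variation 12.4%). It was at 76.3, 68.7 and 59.5 RPKM in cKO and at 55.7, 62.7 and 60.5 RPKM in control libraries. Only cKO replicates 2 and 3 lay above the controls, and cKO replicate 4 fell within them. The log2 fold change of 0.19 ± 0.11 (interval −0.07 to 0.44, limma adjusted p = 0.944) was 0.10 without cKO replicate 2 and 0.28 without cKO replicate 4. Dbp shares 539 exonic bases with Sphk2 on the opposite strand, a sphingosine kinase gene at 7.03 RPKM.

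**Figure D2:**
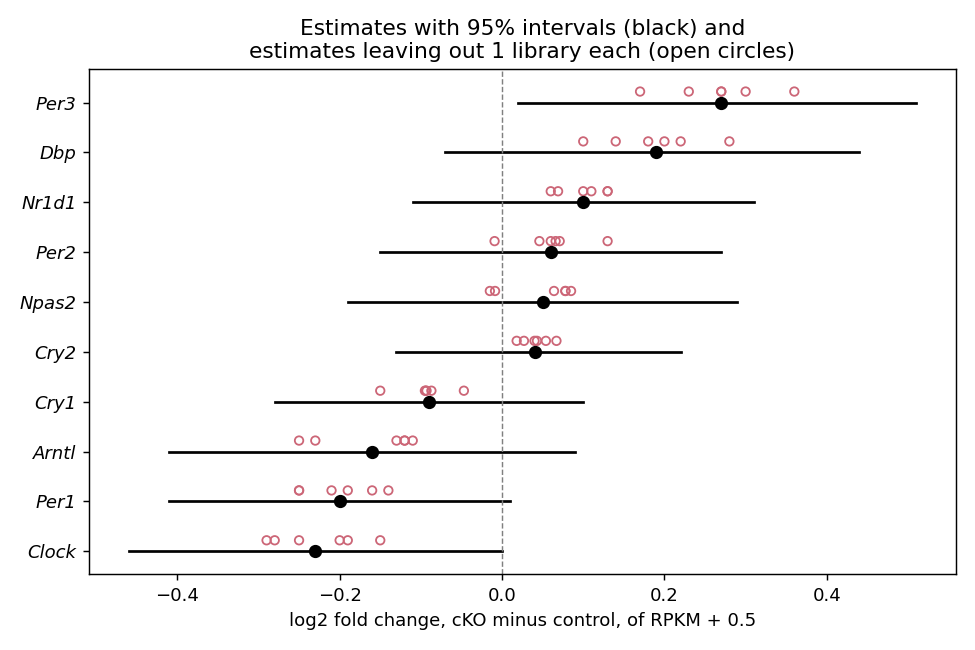
log2 fold change of each clock gene (x axis, cKO minus control, on RPKM + 0.5) with its 95% limma interval in black, and the 6 values obtained by leaving out each library in turn as open circles. The interval excludes 0 for Per3 alone (0.02 to 0.51) before adjustment over all tested genes, and circles fall on both sides of 0 for Per2 and Npas2.

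Between libraries, the members did not all shift in the same direction, and whether opposite shifts were linked was not tested. Dbp was highest in cKO replicates 2 and 3, the same libraries in which Arntl was lowest, so that the ratio of Dbp to Arntl was 3.59 and 3.21 there and 2.31 in cKO replicate 4, against 2.11, 2.71 and 2.25 in the controls. The ratio of Nr1d1 to Arntl was 6.49, 7.12 and 5.54 in cKO and 5.12, 5.57 and 5.19 in control libraries, and the groups overlapped. Neither ratio was planned, and both are given without a test. They follow from the values of their genes given above and add nothing to them. In cKO replicate 4, Clock and Per1 had their lowest values of the 6 libraries, and Npas2, Per2 and Cry1 their highest. With a step taken as 1 read, that library also had the fewest reads in genes, and the part of depth in its values was not tested. The median SD of the log2 values over the 6 libraries was 0.117 for the members and 0.133 for all tested genes, and 5 members lay above the latter.

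**Figure D3:**
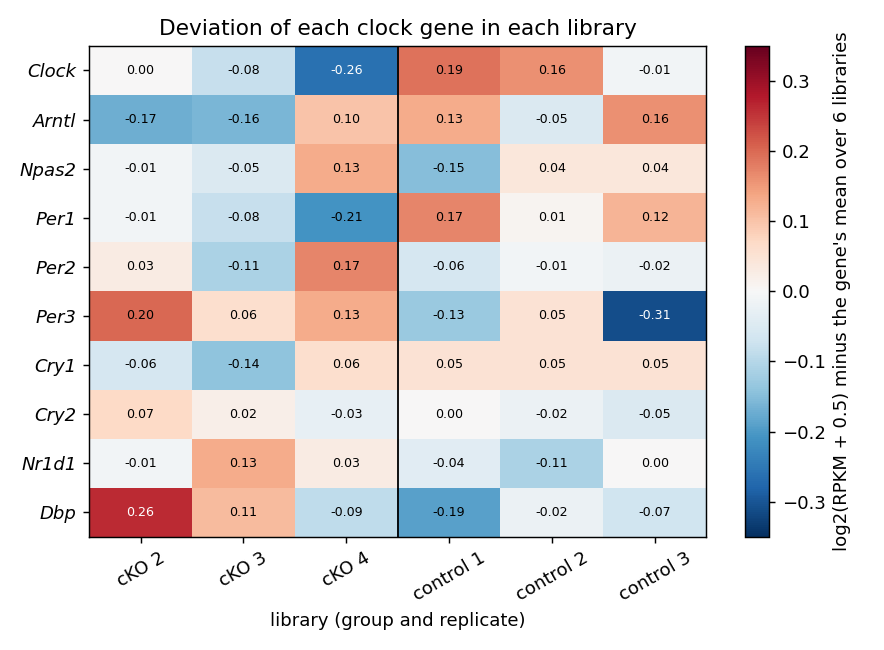
log2(RPKM + 0.5) of each clock gene in each library minus its mean over the 6 libraries (colour and printed number), with cKO libraries left of the line and control libraries right. Dbp is highest (0.26 and 0.11) and Arntl lowest (−0.17 and −0.16) in cKO replicates 2 and 3, while Per3 is lowest in control replicate 3 (−0.31).

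**Figure D4:**
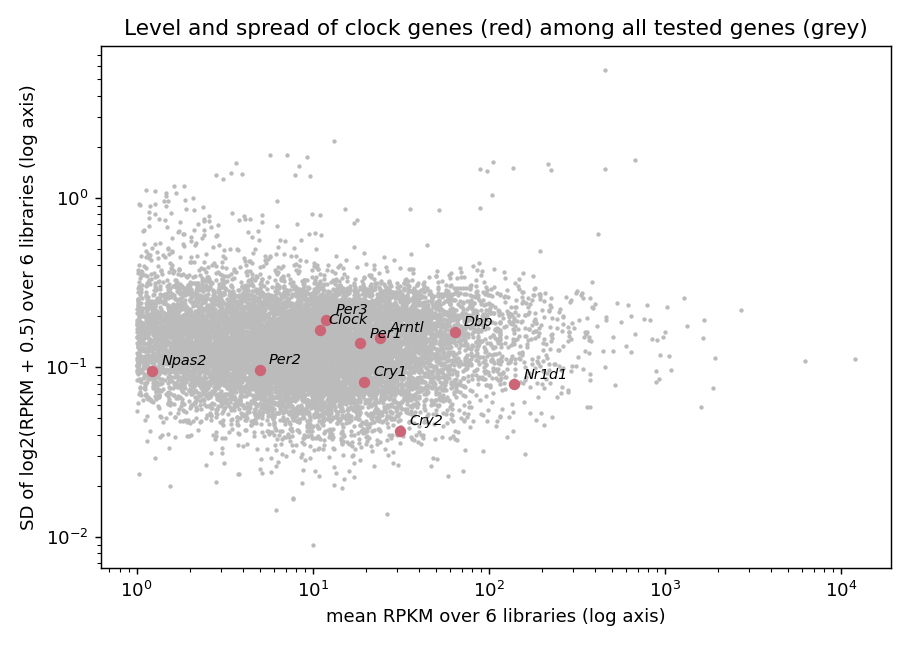
Mean RPKM over the 6 libraries (x axis, log scale) against the SD of log2(RPKM + 0.5) over them (y axis, log scale) for the 12599 tested genes in grey and the clock genes in red. Cry2 lies in the lower part of the cloud with an SD of 0.042, and Per3 is the member with the widest spread, 0.191.

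Likeness between genes was measured as the root mean square difference of their mean-centred log2 values over the 6 libraries, as a description with no test. The tested genes nearest to Arntl were 2610008E11Rik (0.017), the RNA helicase gene Dhx15 (0.019) and the gene of the cytokine receptor-like factor Crlf3 (0.022). Those nearest to Dbp were Cpm (0.032), a carboxypeptidase gene, Camk2a (0.038), a calcium-dependent kinase gene, and Zfp238 (0.039), a zinc finger repressor gene. Those nearest to Per2 were the splicing regulator gene Nova1 (0.019), Zfp964 (0.020) and 4933421O10Rik (0.021). None of these is in the clock lists. For the remaining members the nearest were Spry2 for Clock, Ddx27 for Npas2, Sh2b2 for Per1, Adamts10 for Per3, Dcaf10 for Cry1, Lbh for Cry2 and Pbx3 for Nr1d1, with differences between 0.009 and 0.030. Within the clock lists, the nearest to Cry2 was Tef (0.021), the nearest to Nr1d1 was Drd2 (0.040), and Per2 and Npas2 were 0.058 apart. For Per3 the nearest there was Adcy1, at 0.103. The median difference to all tested genes was 0.132 for Cry2, 0.138 for Nr1d1, 0.146 for Per2 and 0.224 for Per3. Genes that vary little lie near each other on this measure whatever their pattern, and the SD was 0.042 for Cry2 and 0.058 for Tef.

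The promoters of the members were searched for the elements through which the loop works, in windows from 250 bases before to 50 after each annotated start (RefSeq, GRCm38.p6). Windows were found for 9 members but not for Per2, whose promoter was therefore not searched. Each window was searched on both strands for the E-box CACGTG, its variant CACGTT and the D-boxes TTATGTAA and TTACGTAA. The cAMP response element TGACGTCA, its short form TGACG and the ROR element were searched for in the same way. Of all 32851 windows, 7.15% held an E-box, 4.68% the variant, 1.06% a D-box and 0.384% a ROR element. An E-box lay in the windows of Per1 and Cry1, the variant in those of Cry1, Cry2 and Nr1d1, and a pair of D-boxes in that of Per3. A ROR element lay at 27 to 37 bases after a start of Arntl. The stretches below, 5′ to 3′ on the strand of the gene, show these elements in the members with the clearest separation, Per3 and Per1, and in Cry1 and Nr1d1, with E-boxes, their variant and D-boxes in capitals. A match of letters shows no binding.
Per3, chr4:151044806-151044885, minus strand: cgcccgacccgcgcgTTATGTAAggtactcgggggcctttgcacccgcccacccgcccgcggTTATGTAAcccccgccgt
Per1, chr11:69098759-69098818, plus strand: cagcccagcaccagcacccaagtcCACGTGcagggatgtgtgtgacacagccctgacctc
Cry1, chr10:85185095-85185154, minus strand: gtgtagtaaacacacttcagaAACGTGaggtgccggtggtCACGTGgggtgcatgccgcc
Nr1d1, chr11:98775378-98775437, minus strand: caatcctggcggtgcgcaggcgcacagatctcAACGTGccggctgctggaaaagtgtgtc
The short cAMP element, found in 20.8% of all windows, lay in those of Per1, Cry1 and Cry2. The full one lay in none of the 9 members searched.

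Since the deleted gene acts through microRNAs, the longest annotated 3′ UTR of each member (GENCODE M21) was searched for seed sites of 11 microRNAs known from retina or from clock work. A site was counted where the UTR matched bases 2 to 8 of the microRNA, or bases 2 to 7 followed by an A. The members held 31 such sites, 16 of them in Clock, whose 3′ UTR is 6831 bases long against a median of 1414 over tested genes. Per2 held 7, Cry2 held 4, and Npas2, Per1, Per3 and Cry1 held 1 each. Arntl, Nr1d1 and Dbp, whose UTRs are between 288 and 507 bases long, held none. The mature sequences of the miR-183/96/182 cluster, which is abundant in photoreceptors, are shown with the seed in capitals. Every match in members to their bases 2 to 8 follows, with the matched bases in capitals. An A directly after a match is also in capitals.
miR-182-5p: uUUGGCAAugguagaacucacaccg
miR-96-5p: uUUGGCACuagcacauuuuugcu
miR-183-5p: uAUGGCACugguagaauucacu
Clock, bases 252 to 259 of the UTR, miR-182-5p: aaagagtataTTGCCAAAtgcta
Clock, bases 6296 to 6303 of the UTR, miR-182-5p: gtttacccctTTGCCAAAactag
Per2, bases 329 to 335 of the UTR, miR-96-5p: tctttccagtGTGCCAAtgtcc
Cry2, bases 137 to 143 of the UTR, miR-183-5p: aaggtgtggtGTGCCATttgtg
Seed bases 2 to 7 are the same in miR-182-5p and miR-96-5p, so both sites in Clock are also counted for miR-96-5p. A site in Per2 at bases 1479 to 1485 of the UTR, matching bases 2 to 7 and an A, is likewise counted for both microRNAs. Sites for miR-182-5p were found in 2 of the 10 members and in 23.2% of the tested genes with a UTR, and those for miR-183-5p in 1 member and 18.5%. Clock, the member with the most sites, was at 84.9% of its control mean, Per2 with 7 sites at 105% and Cry2 with 4 sites at 103%. None of them passed the test, and a whole retina includes cells that keep Dicer1.

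Beyond the 10 members, 79 genes of the wider clock were in the table and 70 passed the filter. None was called by limma, 30 averaged higher and 40 lower in cKO, and their median log2 fold change was −0.031. Groups did not overlap for 4 higher and 5 lower genes of the 70, near the 5.91% and 5.78% of all tested genes.

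The remaining repressors did not pass: Bhlhe41, which competes for E-boxes, was at 38.3 ± 9.35 RPKM in cKO and 36.1 ± 5.48 RPKM in controls (SD, n = 3). Its relative Bhlhe40 was at 17.9 ± 0.293 and 18.8 ± 1.12 RPKM. Gm129, the older symbol of Ciart, a repressor of the CLOCK complex, was at 6.83 ± 0.385 and 6.20 ± 0.859 RPKM, and Timeless at 1.95 ± 0.195 and 1.81 ± 0.152 RPKM. In the second loop, Nr1d2, the other REV-ERB gene, was at 16.3 ± 0.531 and 16.7 ± 0.366 RPKM. Of the ROR receptors, which activate Arntl against REV-ERB, none passed. Rora was at 33.2 ± 2.07 in cKO and 36.0 ± 0.492 RPKM in controls, and Rorb, the form typical of retina, at 21.5 ± 0.963 and 23.4 ± 1.47 RPKM. Rora in cKO lay below the control range, with a limma adjusted p of 0.970.

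Among the bZIP output genes, Nfil3, which represses the D-boxes that DBP activates, came closest to passing. It was at 8.01, 7.91 and 9.59 RPKM in cKO and 11.6, 10.7 and 11.9 RPKM in control libraries, with every cKO value below the controls. The log2 fold change was −0.41 ± 0.10 (limma adjusted p = 0.607, unadjusted p = 0.00313). Tef and Hlf, the relatives of Dbp, were at 60.9 ± 2.86 and 26.5 ± 1.23 RPKM in cKO and at 58.7 ± 1.84 and 27.3 ± 0.626 RPKM in controls.

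The enzymes that set the life span of clock proteins gave no call in either list. Of 14 kinase and phosphatase genes 10 averaged higher in cKO, with a median log2 fold change of 0.02. Csnk1e, a kinase of PER proteins, was at 38.8 ± 4.27 in cKO and 32.9 ± 2.46 RPKM in controls (limma adjusted p = 0.889). Prkaa1, a subunit of AMP kinase, was at 3.41 ± 0.166 and 3.92 ± 0.233 RPKM (limma adjusted p = 0.883). Ppp1cb was at 24.2 ± 2.44 and 26.0 ± 0.958 RPKM, Csnk2a2 at 8.10 ± 0.702 and 7.59 ± 0.669, and Ppp1ca, the most abundant, at 88.1 ± 3.97 and 84.9 ± 6.30. Of 10 ubiquitin ligase and protease genes 8 were lower, with a median of −0.06. Fbxl21, a ligase of CRY, was at 0.963 ± 0.234 and 1.16 ± 0.0441 RPKM, Btrc, a ligase of PER, at 30.9 ± 0.346 and 29.5 ± 0.455, and Huwe1, Ube3a and Siah2 at 14.2, 3.82 and 9.41 RPKM in cKO and 15.7, 4.30 and 10.5 RPKM in controls. Transcription partners had a median of −0.05 over 13 genes. Sirt1, a deacetylase that acts on BMAL1, was at 6.03 ± 0.559 and 6.69 ± 0.241 RPKM, Parp1 at 20.9 ± 0.393 and 19.5 ± 0.590, Ep300 at 16.0 ± 0.857 and 17.1 ± 0.260, Kdm5a at 3.14 ± 0.166 and 3.45 ± 0.337, and Sfpq, the most abundant, at 41.9 in both groups.

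Genes under clock control in many tissues had a median log2 fold change of −0.07 over 10 tested, 8 of them lower. Sgk1, a kinase that also answers to glucocorticoids, was at 35.5, 32.4 and 38.3 RPKM in cKO and 41.2, 39.8 and 44.8 RPKM in controls. Its groups did not overlap (limma adjusted p = 0.865). Tspan4 was at 19.5 ± 0.619 and 17.2 ± 2.02 RPKM, Coq10b at 4.50 ± 0.801 and 5.39 ± 0.732, and the cell cycle inhibitor gene Cdkn1a at 2.02 ± 0.584 and 2.51 ± 0.290.

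In the list of retinal rhythm, light and dopamine genes 6 of 13 tested were higher and 7 lower. Drd4, the dopamine receptor of photoreceptors that cycles daily in rodent retina, was at 399, 412 and 363 RPKM in cKO and 267, 315 and 271 RPKM in control libraries. Every cKO value lay above the controls, with a limma log2 fold change of 0.46 ± 0.11 and an adjusted p of 0.607. Sik1, a kinase gene induced through cAMP, was at 3.07, 2.26 and 1.74 RPKM in cKO and 3.61, 3.35 and 3.00 RPKM in controls (log2 fold change −0.44 ± 0.16, limma adjusted p = 0.848). Without cKO replicate 4 it was at −0.28. Crem was at 2.01 ± 0.171 and 2.44 ± 0.438 RPKM, and Opn4, the melanopsin gene of light-sensitive ganglion cells, at 3.07 ± 0.466 and 3.58 ± 0.133 RPKM. Aanat, the rate-limiting enzyme of melatonin synthesis, was below the filter at 0.856 ± 0.200 and 0.733 ± 0.163 RPKM.

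**Figure D5:**
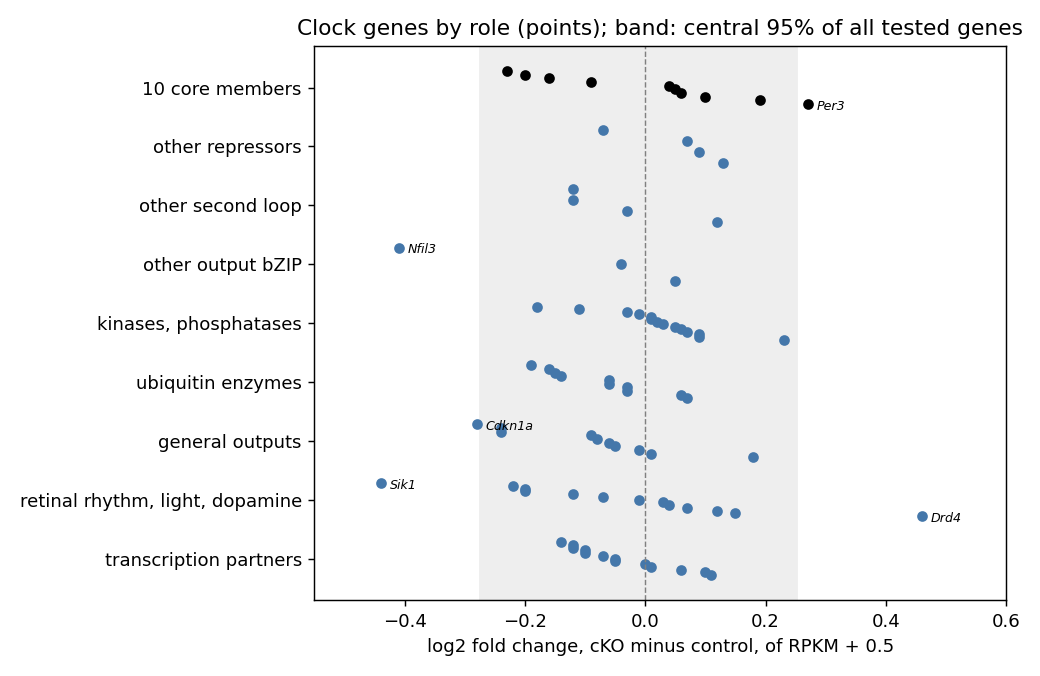
log2 fold change (x axis, cKO minus control, on RPKM + 0.5) of the 10 core clock genes (black) and of the tested genes of the other clock lists (blue), by role, with the central 95% of all tested genes (−0.27 to 0.25) as a grey band. Per3 lies at the upper edge of the band, and Nfil3, Sik1 and Drd4 lie farther outside it than any core member.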

How the data were processed

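Per the labels' protocols, poly(A) RNA of pooled retinas was reverse transcribed with random primers, with no strand mark. The authors deposited 1 table of RPKM values per gene and library. The submitters' processing notes name GSNAP, HTSeq and the mm9 build. The gene annotation and its length model were not given. Because RPKM is relative to depth, other genes shift when a few abundant ones change.

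RPKM values as deposited were tested with limma 3.58.1 (R 4.3.3) on log2(RPKM + 0.5), with a variance trend, over the 12599 genes averaging 1 RPKM or more, adjusted by Benjamini-Hochberg over all of them (threshold 0.05). Intervals are 95% moderated intervals, unadjusted. Fold changes on this scale understate those of low genes. Whole reads were worked back from the RPKM steps, a step being taken as 1 read, for 19138 of 19140 genes above 0, with deposited values returned within 1e-05 for 19105, and with the lengths of single-transcript GENCODE genes setting the scale. Counting errors follow from those reads and cover counting only. Pairs of libraries of 1 group differed by a chi-square per degree of freedom of at least 11.2. Libraries are biological replicates by the design text, and the p-values measure the spread between pools of mice.

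The members and the lists were chosen with earlier results of these data known. From the other lists the text names genes past the threshold, otherwise the 4 with the smallest p and the most abundant; one gene so chosen is not reported here. Alternatives were other pseudocounts, filters, scaling, no trend, voom on reads, each library left out, and a replicate block. Coordinates are GRCm38, not the authors' build, and place genes only.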

Additional observations from a re-analysis of the deposited data

How the results depend on the processing

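No core member was called in any of the 15 other fits that tested it, limma voom on recovered reads included. The fit with a mean of at least 5 RPKM left out Npas2 and Per2. The lowest adjusted p of a member was 0.160, for Per3. Clock, Arntl, Per1 and Cry1 stayed below 0 and Per3, Cry2, Nr1d1 and Dbp above 0 in all fits. Genes called over the whole table numbered 1 as reported, 3 with no filter, 2 with a mean of at least 5 RPKM, 3 with median-of-ratios scaling, 2 with no variance trend and 3 with voom. The cause of these differences was not tested.

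With the replicate block, on cKO and control replicates 2 and 3 with 1 residual degree of freedom, 192 genes and 2 of the other clock genes, Drd4 and Nfil3, were called. The same 4 libraries without the block gave 1 and 0. The libraries share only a number, and their differences correlated at 0.47 over genes. In both 4-library fits Clock and Per1 were at −0.11, Cry1 at −0.15, Cry2 at 0.080, Sik1 at −0.22, Npas2 at −0.071, Per2 at −0.024, Csnk2a2 at −0.014 and Sfpq at −0.0042. With voom Sfpq was at −0.022.

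Leaving out 1 library at a time gave log2 fold changes of −0.015 to 0.085 for Npas2, −0.0092 to 0.13 for Per2, −0.11 to 0.23 for Bhlhe41, −0.0061 to 0.098 for Ppp1ca and −0.079 to 0.076 for Sfpq. The promoter search gave 12 matches, and 11 in the bases before the start alone. The UTR search gave 31 sites, and 24 when bases 2 to 8 had to match. Depth limits Npas2 most among members, with 88 reads in cKO replicate 4 and a counting error of 10.7% where a step is 1 read. More reads a step would lower that error.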
